A study of Mus musculus with 23 samples.

Results

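The growth hormone and STAT5 axis of the liver was followed through 10 genes, matched by symbol. They were chosen with earlier results of these data known. They are the receptor gene *Ghr*, the signal transducers *Stat5a* and *Stat5b*, the feedback inhibitors *Socs2* and *Cish*, the circulating products *Igf1* and *Igfals*, the transcriptional repressors *Bcl6* and *Cux2*, and the sex-biased gene *A1bg*. All 10 symbols were found, each in 1 row of a count table of 27179 genes. All 10 also had a mean of at least 1 CPM (counts scaled to a common library size) over the 15 mice, a level that 12316 genes reached, so no member was lost to low counts.

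RNA of liver tissue free of visible tumors was sequenced from 15 female mice, 6 Ctrl, 6 ABpIF/+ and 3 ABpIF/F. Every mouse carried Alb-Cre, which drives recombination in cells that express albumin, and Trp53 flx/flx. Ctrl mice had wild-type Braf and Icmt flx/+. ABpIF/+ mice carried in addition the conditional Braf allele that yields BRAF V600E (BrafCA/+ in the design text, BRAF +/+ in the genotype labels), and ABpIF/F mice carried this allele with Icmt flx/flx. Icmt encodes the enzyme that methylates prenylated proteins. The comparison of ABpIF/+ with Ctrl asks what BRAF V600E does on the shared Trp53 flx/flx and Icmt flx/+ background, that of ABpIF/F with Ctrl changes Braf and Icmt together, and that of ABpIF/+ with ABpIF/F asks what the second floxed Icmt allele does. Both comparisons with Ctrl use the same 6 Ctrl mice. A single strain label covers 5 of the 6 Ctrl mice, and another covers the Ctrl mouse BG3 and all 9 Braf mice, so that strain label and Braf genotype can hardly be told apart. Only 3 ABpIF/F mice were obtained, and the labels give no ages. The study reports that the ABpIF/F mice differed in age. All of them had liver tumors, and the tumor burden went with age. It does not link these ages to mouse names. The part of age and tumor burden in comparisons with ABpIF/F mice, and in their spread, was not tested. The study's mice were followed until they died or were euthanized for weight loss or poor condition. It reports weight loss and signs of illness in ABpIF/+ mice, but not in Ctrl or ABpIF/F mice. In comparisons with ABpIF/+ mice general condition and genotype can thus not be told apart, and the part of condition in the results was not tested.

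Growth hormone reaches the hepatocyte from the pituitary, binds GHR and activates the kinase JAK2, which phosphorylates STAT5. Phosphorylated STAT5 enters the nucleus and switches on *Igf1* and *Igfals*, whose products form the circulating growth factor complex, together with *Socs2* and *Cish*, whose products damp the signal. The pulsed release of growth hormone in male mice and its steadier release in females set the sex bias of many liver genes, with CUX2 and BCL6 acting as repressors in this network.

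STAT5 dimers bind the palindrome TTCNNNGAA, which reads the same on both strands. This motif was searched in RefSeq promoter windows of GRCm38.p6, each running from 250 bases before to 50 bases after a transcription start, and 2726 of 32851 windows (8.3%) held it. Of the 10 genes 9 had such windows, 16 in all, and *Socs2* had no entry. A match was present in 6 of the 16 windows, from *Cish*, *A1bg*, *Igfals* and *Bcl6*, and the 9 matches are given in capitals with the bases around them, because they are the letters in these promoters that a STAT factor could read. A match is a description of the sequence and not a measured binding site.

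*Cish*, chr9:107296659-107296688, plus strand, in a UTR exon: TTCCTGGAAagTTCTTGGAAatctgtcaaa
*A1bg*, chr15:60921336-60921364, minus strand, at the border of an intron and a UTR exon: tgcccctaccTTCCAGGAAgggcaaacaa
*Igfals*, chr17:24877594-24877646, plus strand, in an intron: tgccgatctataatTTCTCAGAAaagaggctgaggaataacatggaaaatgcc
*Igfals*, chr17:24878143-24878211, plus strand, in an intron: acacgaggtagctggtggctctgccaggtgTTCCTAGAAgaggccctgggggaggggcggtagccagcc
*Bcl6*, chr16:23988932-23989000, minus strand, outside the gene: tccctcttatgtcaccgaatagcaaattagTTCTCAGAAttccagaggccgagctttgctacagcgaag
*Bcl6*, chr16:23981333-23981481, minus strand, in an intron: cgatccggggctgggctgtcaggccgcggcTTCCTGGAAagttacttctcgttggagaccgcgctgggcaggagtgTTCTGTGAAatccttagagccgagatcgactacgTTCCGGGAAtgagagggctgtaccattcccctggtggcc

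*Cish* holds its pair of matches at bases 1 and 12 after the start, and the match of *A1bg* begins at position -84. The *Bcl6* windows hold 1 and 3 matches, the *Igfals* windows 1 each. The 4 genes with a match did not share a direction of change in the results that follow, and the *Igf1* and *Ghr* windows held none.

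Before the results, the series as a whole was checked. Libraries held 24742910 to 32262649 counted reads per mouse. *Icmt* lay at 15.2 to 16.6 CPM in ABpIF/F mice and at 27.8 to 37.4 CPM in the other 12, so a part of its reads remained. *Trp53*, floxed in all mice, lay at 4.29 to 6.74 CPM in Ctrl, 12.3 to 16.8 in ABpIF/+ and 9.78 to 12.4 CPM in ABpIF/F mice, and was called higher in ABpIF/+ vs Ctrl (1.37 on the log2 scale, edgeR adjusted p = 1.58e-07) but not in ABpIF/F vs Ctrl (0.99, edgeR adjusted p = 0.000166). Reads of a floxed gene outside its deleted exons are still counted, so these levels do not measure the deletion. Hepatocyte markers summed to 110162 to 146697 CPM in Ctrl, 188825 to 255811 in ABpIF/+ and 151666 to 237320 in ABpIF/F mice. In ABpIF/+ vs Ctrl 1 of 7 (*Trf*) was called higher and 0 lower. Most of the hepatocyte sum was *Alb*, with means of 89159, 153783 and 144110 CPM, while *Ttr* had means of 4216, 2399 and 3419 CPM. In ABpIF/F vs Ctrl *Trf* was called higher and *Pck1* lower. Stellate and fibroblast markers summed to 129 to 188, 37.5 to 80.0 and 119 to 189 CPM (4 of 5 lower in ABpIF/+ vs Ctrl), macrophage markers to 282 to 400, 120 to 203 and 241 to 549 CPM (3 of 6 lower), and cholangiocyte markers to 35.6 to 68.1, 29.9 to 145 and 204 to 1147 CPM (3 of 5 higher in ABpIF/F vs Ctrl). Most of the cholangiocyte sum was *Spp1*, with means of 43.8, 66.9 and 660 CPM. In ABpIF/+ vs Ctrl *Sox9* was called higher (2.61 on the log2 scale) and *Krt19* lower (-1.21). No stellate, macrophage, cholangiocyte or hepatocyte marker was at 0 in any mouse, adipocyte markers had at most 3 reads in any mouse, and the part of these shifts in the results was not tested. In bulk liver, fewer cells of a type and less RNA per cell cannot be told apart. A score of clock genes (mean log2 CPM of *Bmal1*, *Npas2* and *Clock* minus that of *Nr1d1*, *Dbp*, *Ciart*, *Per3* and *Tef*) was -0.43, 0.89 and 2.31 in the ABpIF/F mice and 0.75 in the Ctrl mouse malpa387, against -6.16 to -4.37 in the other 11 mice. Both covariates, the clock score and the strain label, were therefore also added to the fit. Among Ctrl mice only malpa387 reached the scores of the ABpIF/F mice. In fits with the clock score, that score and the ABpIF/F group can thus hardly be told apart.

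A gene was called changed at an edgeR adjusted p under 0.01 with at least a 2-fold difference. In ABpIF/+ vs Ctrl 5 of the 10 genes were called. *Igfals*, *A1bg*, *Ghr* and *Igf1* fell and *Cish* rose. Of all 27179 genes 10.0% were called in this comparison, 4.69% higher and 5.35% lower, and of the 12316 genes with at least 1 CPM 17.6%, 8.21% higher and 9.39% lower. The groups did not overlap for 6 of the 10 genes, 5 lower and 1 higher, against 31.3% of genes with at least 1 CPM (15.8% lower). In ABpIF/F vs Ctrl 5 genes fell, *A1bg*, *Cux2*, *Ghr*, *Igfals* and *Igf1*, and none rose, where 6.93% of all genes were called, 4.55% higher and 2.38% lower. Of genes with at least 1 CPM 7.53% were higher and 5.04% lower. These 5 genes were also those whose groups did not overlap, against 31.6% of genes with at least 1 CPM (16.5% lower). In ABpIF/+ vs ABpIF/F 2 genes were called, *A1bg* and *Cux2*, both higher in ABpIF/+, where 7.24% of all genes were called, 1.76% higher and 5.49% lower. Of genes with at least 1 CPM 3.72% were higher and 8.5% lower. Here 3 members did not overlap, 2 higher and 1 (*Stat5b*) lower, against 34.2% of genes with at least 1 CPM (19.2% higher). The median absolute log2 fold change of the 10 genes was 1.42, 1.17 and 0.92 in the 3 comparisons, and that of genes with at least 1 CPM was 0.40, 0.36 and 0.36. Scaled by library totals alone, 0 of the 10 genes were called higher and 6 lower in ABpIF/+ vs Ctrl, and the calls over all genes moved from 1275 higher and 1454 lower to 978 and 1812, and in ABpIF/+ vs ABpIF/F from 478 and 1491 to 286 and 1891. The balance of calls over all genes in ABpIF/F vs Ctrl, 65.6% higher, turned to 39.8% with the strain label and 47.7% with the clock score in the fit. In ABpIF/+ vs ABpIF/F it turned from 24.3% to 54.9% higher with the clock score (112 higher and 92 lower).

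**Figure D1:**
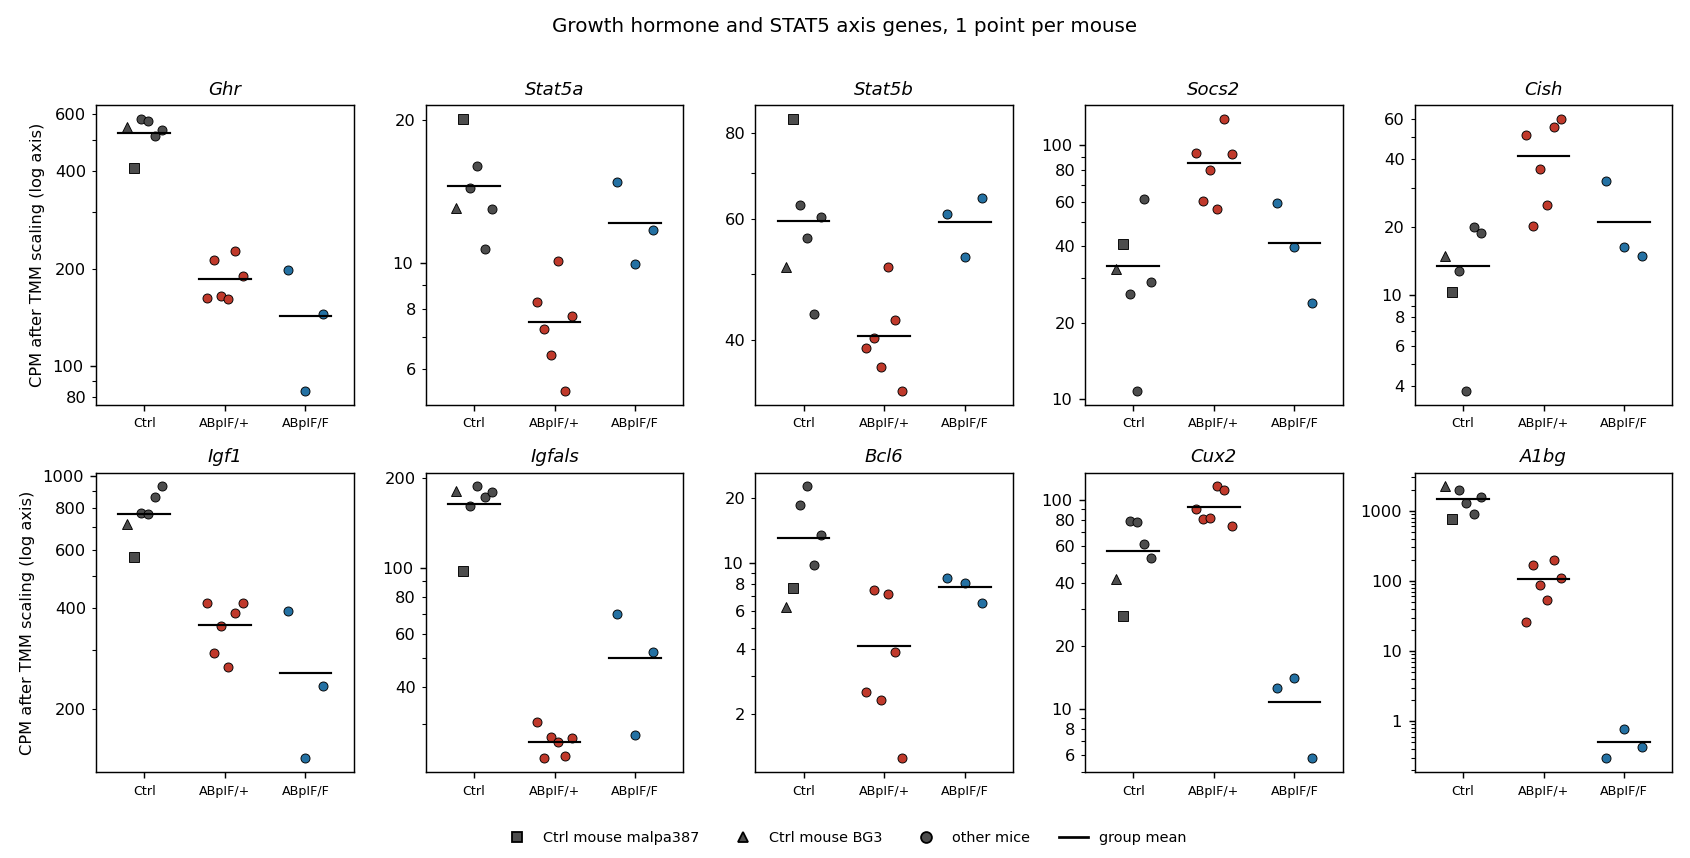
Expression of the 10 growth hormone and STAT5 axis genes as CPM after TMM scaling (log axis) in each of 6 Ctrl, 6 ABpIF/+ and 3 ABpIF/F mice, with lines at the group means, a square for the Ctrl mouse malpa387 and a triangle for the Ctrl mouse BG3. *Ghr*, *Igf1*, *Igfals* and *A1bg* lie lower in every mouse of both Braf groups than in every Ctrl mouse, *Cux2* lies lowest in the ABpIF/F mice, and the means of *Socs2* and *Cish* are highest in ABpIF/+ mice.

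The receptor was lower in both Braf groups. *Ghr* (chromosome 15, 3317760 to 3583492, minus strand of GRCm38) ran from 411 through a median of 544 to 580 CPM in Ctrl mice and from 161 through 177 to 227 CPM in ABpIF/+ mice. The ABpIF/F mice BG183, BG38 and BG90 were at 199, 83.7 and 145 CPM. The highest value of either Braf group was thus well under the lowest Ctrl value, which belonged to malpa387. On the log2 scale *Ghr* changed by -1.50 (standard error 0.17, edgeR adjusted p = 4.09e-07) in ABpIF/+ and by -1.89 (standard error 0.22, edgeR adjusted p = 2.12e-06) in ABpIF/F mice, a 2.83-fold and a 3.70-fold fall. Both calls held with the strain label and with the clock score in the fit. The Braf groups overlapped each other, and ABpIF/+ vs ABpIF/F gave 0.39 (standard error 0.21, edgeR adjusted p = 0.234).

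The transducers were not called in any comparison. *Stat5b*, the main STAT5 gene of the liver, ran from 43.7 through 58.4 to 83.9 CPM in Ctrl and from 33.8 through 39.7 to 51.1 CPM in ABpIF/+ mice, and was at 61.1, 52.9 and 64.3 CPM in BG183, BG38 and BG90. *Stat5a*, its paralog 8626 bases away on chromosome 11, ran from 10.7 through 13.7 to 20.1 CPM in Ctrl and from 5.39 through 7.50 to 10.1 CPM in ABpIF/+ mice, and was at 14.8, 9.97 and 11.7 CPM in the ABpIF/F mice. For *Stat5a* all ABpIF/+ mice lay below all Ctrl mice, while for *Stat5b* these groups overlapped in BG40. The paralogs are similar in sequence, so a part of their reads could have been assigned to the wrong gene.

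The log2 fold change in ABpIF/+ vs Ctrl was -0.95 for *Stat5a* (standard error 0.16, edgeR adjusted p = 0.000109) and -0.56 for *Stat5b* (standard error 0.14, edgeR adjusted p = 0.00326), both below the 2-fold limit and so not called. *Stat5a* passed the limit without malpa459 (-1.02), BG175 (-1.01) or BG40 (-1.05). In ABpIF/F vs Ctrl the values were -0.26 (standard error 0.20, edgeR adjusted p = 0.492) for *Stat5a* and -0.0066 (standard error 0.17, edgeR adjusted p = 1.0) for *Stat5b*. ABpIF/+ mice lay below ABpIF/F mice by 0.55 on the log2 scale for *Stat5b*, where these groups did not overlap, and by 0.69 for *Stat5a* (edgeR adjusted p = 0.0202 and 0.0149). The *Stat5b* to *Stat5a* ratio of CPM was 4.12 ± 0.39 (SD, n = 6) in Ctrl, 5.56 ± 1.27 (SD, n = 6) in ABpIF/+ and 4.97 ± 0.74 (SD, n = 3) in ABpIF/F mice, with overlapping ranges.

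Of the feedback inhibitors *Cish* rose in ABpIF/+ vs Ctrl, and *Socs2* was higher there without passing the test. *Cish* (chromosome 9, 107296026 to 107302784, plus strand) encodes an SH2 protein that competes for the receptor's phosphotyrosines, and it ran from 3.78 through 13.9 to 20.1 CPM in Ctrl and from 20.2 through 43.8 to 60.2 CPM in ABpIF/+ mice. The ABpIF/F mice BG183, BG38 and BG90 were at 32.01, 16.5 and 14.9 CPM. The highest Ctrl and the lowest ABpIF/+ value nearly touched, at 20.1 and 20.2 CPM, and the ABpIF/F mice reached into both ranges. *Cish* rose by 1.62 on the log2 scale in ABpIF/+ vs Ctrl (standard error 0.40, edgeR adjusted p = 0.00766), or 3.08-fold.

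This call was the least firm of the 5. It was lost in 14 of 27 alternative settings, with adjusted p between 9.69e-06 and 0.390 over all 27 and a log2 fold change between 1.43 and 1.77. Leaving out BG3, malpa387, malpa454, malpa462, BG175, BG31, BG55, BG88 or BG38, 9 of the 15 mice, each raised the edgeR adjusted p of *Cish* to between 0.0103 and 0.0200, with log2 fold changes of 1.49 to 1.74. With the strain label in the fit it was 1.48 (edgeR adjusted p = 0.390), and with the clock score 1.58 (edgeR adjusted p = 0.0101). In ABpIF/F vs Ctrl it was 0.65 (standard error 0.47, edgeR adjusted p = 0.472).

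*Socs2*, whose product marks the growth hormone receptor for degradation, ran from 10.7 through 30.7 to 61.4 CPM in Ctrl and from 56.2 through 86.0 to 127 CPM in ABpIF/+ mice. It was at 59.5, 39.7 and 23.9 CPM in BG183, BG38 and BG90. Of the 6 Ctrl mice only malpa459 reached into the ABpIF/+ range, and malpa458 was lowest for *Socs2* and *Cish* alike. ABpIF/+ vs Ctrl gave 1.346 on the log2 scale (standard error 0.36, edgeR adjusted p = 0.0129), which is past the fold limit but not the limit on adjusted p. It was called in 6 of 27 alternatives, among them without malpa458 (1.16, edgeR adjusted p = 0.00824) and without malpa459 (1.61, edgeR adjusted p = 0.00318), in a range of adjusted p from 8.39e-05 to 0.370. In ABpIF/F vs Ctrl it was 0.30 (standard error 0.43, edgeR adjusted p = 0.882), and ABpIF/+ vs ABpIF/F gave 1.05 (standard error 0.45, edgeR adjusted p = 0.147).

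**Figure D2:**
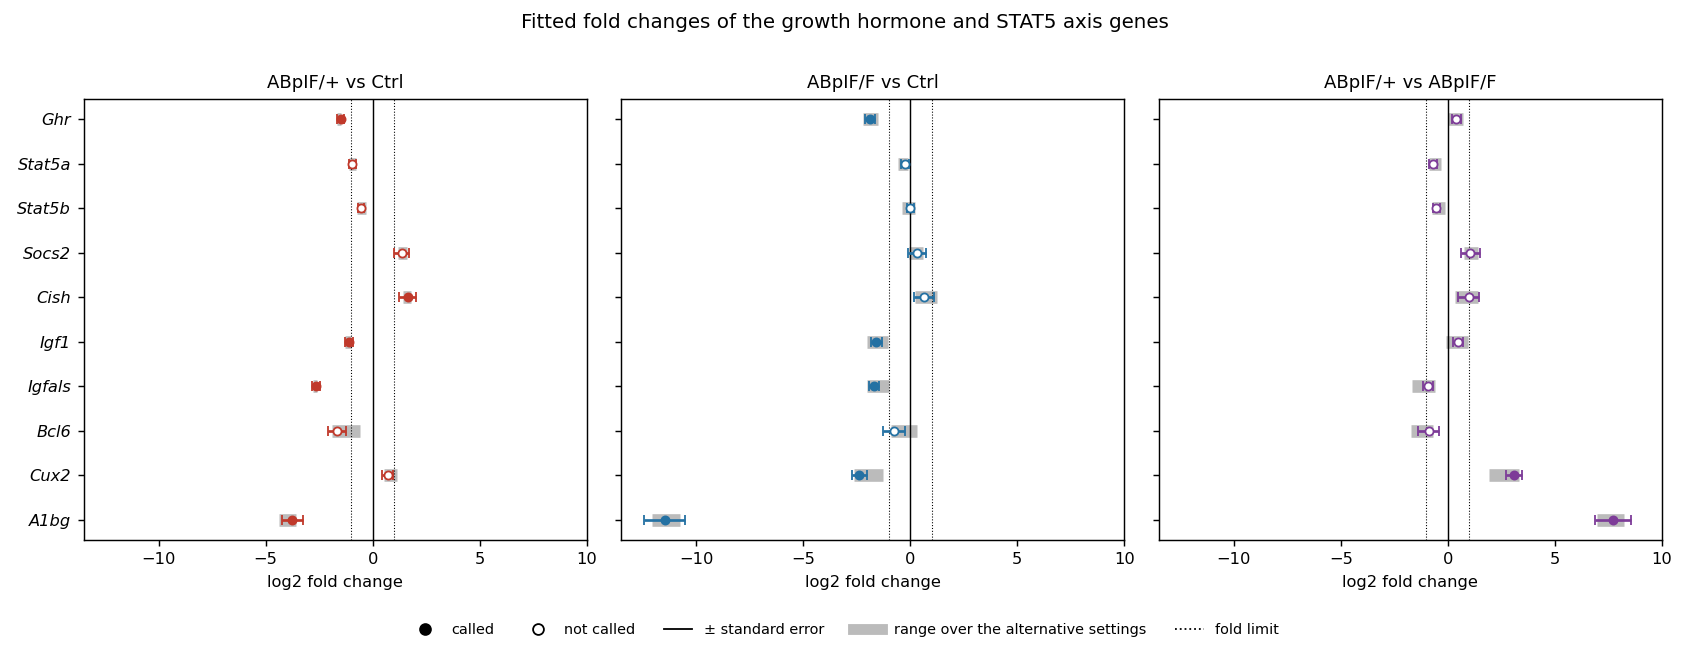
Fitted log2 fold change of each axis gene in the 3 comparisons, with the standard error as a bar, filled points for called genes, dotted lines at the 2-fold limit and a grey band for the range over 27 alternative settings. *Ghr*, *Igf1*, *Igfals* and *A1bg* stand left of 0 against Ctrl in both Braf groups, while *Cux2* is called in both comparisons that include ABpIF/F, and the band of *Bcl6* is wide.

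The secreted products of the axis fell in both Braf groups. *Igf1* (chromosome 10, 87858265 to 87937042, plus strand), the growth factor through which the liver serves the rest of the body, ran from 570 through 770 to 929 CPM in Ctrl and from 266 through 371 to 417 CPM in ABpIF/+ mice. It was at 391.9, 142 and 235 CPM in BG183, BG38 and BG90. No Braf mouse reached the lowest Ctrl mouse, again malpa387. *Igf1* fell 2.16-fold in ABpIF/+ (log2 fold change -1.11, standard error 0.19, edgeR adjusted p = 0.000111) and 3.01-fold in ABpIF/F mice (log2 fold change -1.59, standard error 0.25, edgeR adjusted p = 8.17e-05).

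With the strain label in the fit the call of *Igf1* was lost in both, at -1.01 (edgeR adjusted p = 0.0587, the highest of its 27 alternatives, the lowest being 2.32e-07) and -1.48 (edgeR adjusted p = 0.0114). With the clock score it was lost in ABpIF/F vs Ctrl, at -1.05 (edgeR adjusted p = 0.0649, the range over alternatives being 3.59e-09 to 0.0649). The single Ctrl mouse with the strain label of the Braf groups, BG3, had 717 CPM of *Igf1*, above all 9 Braf mice. ABpIF/+ vs ABpIF/F gave 0.47 (standard error 0.24, edgeR adjusted p = 0.200).

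*Igfals* (chromosome 17, 24865997 to 24882010, plus strand) encodes the acid-labile subunit, which holds IGF1 and its binding protein in the blood. It ran from 97.8 through 176 to 187 CPM in Ctrl and from 23.1 through 26.6 to 30.5 CPM in ABpIF/+ mice, and was at 69.9, 27.7 and 52.1 CPM in BG183, BG38 and BG90. Its ABpIF/+ values lay close together, with a coefficient of variation of 10.5%, against 20.4% in Ctrl mice. *Igfals* fell 6.22-fold in ABpIF/+ mice (log2 fold change -2.64, standard error 0.19, edgeR adjusted p = 2.11e-09), a call that held in all 27 alternatives.

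In ABpIF/F mice *Igfals* fell 3.27-fold (log2 fold change -1.71, standard error 0.24, edgeR adjusted p = 2.73e-05). That call was lost with the clock score in the fit, at -0.98 (edgeR adjusted p = 0.0449, range over alternatives 2.67e-11 to 0.0449). Between the Braf groups *Igfals* was lower in ABpIF/+ by 0.93 on the log2 scale (standard error 0.21, edgeR adjusted p = 0.00401), just under the fold limit. Without BG38, the ABpIF/F mouse inside the ABpIF/+ range, this was -1.22 (edgeR adjusted p = 0.000169, range over alternatives 0.000169 to 0.0582) and passed both limits. It also passed them with the clock score in the fit (-1.69, edgeR adjusted p = 0.00625) and with library totals (-1.07, edgeR adjusted p = 0.000286).

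The repressors differed from each other. *Cux2* (chromosome 5, 121856366 to 122050102, minus strand), a female-biased repressor of male-biased genes, ran from 27.7 through 57.1 to 79.4 CPM in Ctrl and from 74.7 through 86.2 to 116 CPM in ABpIF/+ mice. It was at 12.6, 14.0 and 5.79 CPM in BG183, BG38 and BG90. All 3 ABpIF/F mice thus lay below every Ctrl and every ABpIF/+ mouse, and the lowest Ctrl mouse was malpa387. *Cux2* fell 5.25-fold in ABpIF/F vs Ctrl (log2 fold change -2.39, standard error 0.35, edgeR adjusted p = 0.000150) and was 8.53-fold higher in ABpIF/+ than in ABpIF/F mice (log2 fold change 3.09, standard error 0.36, edgeR adjusted p = 3.63e-05).

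The difference of *Cux2* between the Braf groups was called in all 27 alternatives, at 1.91 (edgeR adjusted p = 0.00618, range over alternatives 1.38e-21 to 0.00618) with the clock score in the fit. The fall against Ctrl was not called with the strain label (-1.94, edgeR adjusted p = 0.0202) or with the clock score (-1.27, edgeR adjusted p = 0.0247), in a range over alternatives from 1.05e-13 to 0.0247. In ABpIF/+ vs Ctrl *Cux2* was not called, at 0.70 (standard error 0.25, edgeR adjusted p = 0.0533).

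*Bcl6* (chromosome 16, 23965052 to 23988852, minus strand) encodes a male-biased repressor that shares sites with STAT5. Per length it had the lowest mean of the members in Ctrl mice, and it ran from 6.23 through 11.6 to 22.5 CPM. It ran from 1.25 through 3.21 to 7.47 CPM in ABpIF/+ mice and was at 8.55, 8.03 and 6.50 CPM in BG183, BG38 and BG90. The groups overlapped, the lowest Ctrl mouse being BG3. ABpIF/+ vs Ctrl gave -1.66 on the log2 scale (standard error 0.43, edgeR adjusted p = 0.0106), just outside the limit on adjusted p, and -0.76 (standard error 0.53, edgeR adjusted p = 0.443) in ABpIF/F vs Ctrl. *Bcl6* was called in ABpIF/+ vs Ctrl in 12 of 27 alternatives, with adjusted p from 3.54e-05 to 0.908 over all of them. Among these were the fits without BG3 (-1.81, edgeR adjusted p = 0.00754), malpa387 (-1.78, 0.00959), BG30 (-1.92, 0.00526) or BG40 (-1.89, 0.00665). With the strain label in the fit it was -0.60 (edgeR adjusted p = 0.908).

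*A1bg* (chromosome 15, 60896859 to 60923012, minus strand), a secreted plasma protein gene with strong female bias in mouse liver, moved the farthest. It ran from 770 through 1437 to 2229 CPM in Ctrl and from 26.3 through 98.8 to 199 CPM in ABpIF/+ mice. In the ABpIF/F mice BG183, BG38 and BG90 it was at 0.294, 0.776 and 0.429 CPM, or 9, 28 and 12 reads. The 3 groups formed separate steps with no overlap. *A1bg* fell 13.5-fold in ABpIF/+ (log2 fold change -3.76, standard error 0.48, edgeR adjusted p = 4.42e-05) and, at these few reads, by a log2 fold change of -11.47 (standard error 0.97) in ABpIF/F mice.

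The step between the Braf groups was itself called. *A1bg* was higher in ABpIF/+ than in ABpIF/F mice by 7.71 on the log2 scale (standard error 0.85, edgeR adjusted p = 4.37e-05). All 3 calls of *A1bg* held in all 27 alternatives, the smallest log2 fold change being -3.58, -10.74 and 6.97. BG3, the Ctrl mouse with the strain label of the Braf groups, had the highest *A1bg* of all mice, and malpa387, the Ctrl mouse with the clock score of ABpIF/F mice, the lowest of the Ctrl mice at 770 CPM.

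Per kilobase of exon the members could be ordered within each group. In Ctrl mice *A1bg* stood first at 607 ± 242 CPM per kb (SD, n = 6), apart from *Igf1* at 77.8 ± 12.5, *Ghr* at 58.2 ± 6.82 and *Igfals* at 51.5 ± 10.5, which overlapped each other. *Stat5b* followed at 10.8 ± 2.47, and *Cux2*, *Socs2*, *Cish*, *Stat5a* and *Bcl6* ran from 5.64 ± 2.02 down to 1.94 ± 0.96 CPM per kb with each neighbor overlapping the next. In ABpIF/+ mice *A1bg* at 44.9 ± 27.8 and *Igf1* at 35.9 ± 6.45 CPM per kb overlapped (SD, n = 6), and *Igfals* at 8.28 ± 0.87 had dropped into the range of *Cux2*, *Socs2*, *Stat5b* and *Cish*. In ABpIF/F mice *Igf1*, *Igfals* and *Ghr* overlapped at 25.9 ± 12.8, 15.8 ± 6.69 and 15.7 ± 6.36 CPM per kb (SD, n = 3), and *A1bg* stood last at 0.208 ± 0.10.

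Ratios of members within each mouse, in which library scaling cancels, differed between the groups to unequal degrees. The *Socs2* to *Igf1* ratio of CPM ran from 0.0140 to 0.0715 in Ctrl, from 0.206 to 0.327 in ABpIF/+ and from 0.102 to 0.280 in ABpIF/F mice. The *Cish* to *Igf1* ratio ran from 0.00494 to 0.0233, from 0.0688 to 0.145 and from 0.0635 to 0.116 in the same order. For both ratios every Braf mouse lay above every Ctrl mouse. *Igf1*, by which both are divided, was itself lower in every Braf mouse than in every Ctrl mouse. Neither inhibitor was called on its own in ABpIF/F mice, so the ratios do not show a rise of the inhibitors there. The *Igfals* to *Igf1* ratio singled out the other Braf group, with 0.0603 to 0.0982 in ABpIF/+ against 0.171 to 0.252 in Ctrl and 0.178 to 0.222 in ABpIF/F mice. *Igf1* to *Ghr* ranged from 1.30 to 1.73, from 1.38 to 2.57 and from 1.62 to 1.97, and these ranges overlapped. These ratios were formed with the results of single genes known and were not tested.

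**Figure D3:**
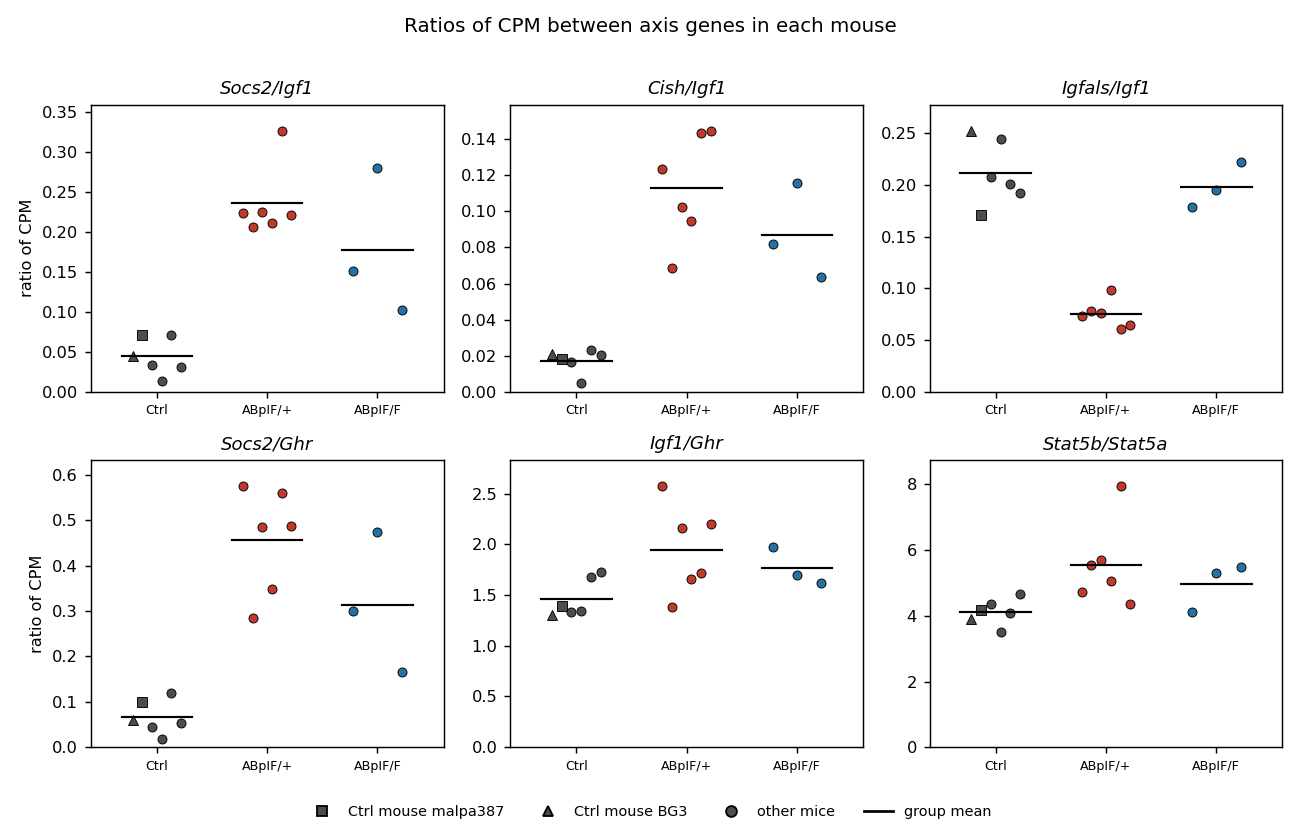
Ratios of the CPM of axis genes in each mouse of the 3 groups, with lines at the group means, a square for malpa387 and a triangle for BG3. *Socs2* and *Cish* over *Igf1* lie higher in all Braf mice than in all Ctrl mice, and *Igfals* over *Igf1* lies lower in the 6 ABpIF/+ mice (at most 0.0982) than in the other 9 (at least 0.171).

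Both Ctrl mice that stand apart were followed through all members. Among the 6 Ctrl mice malpa387 was lowest for 5 members, *Ghr*, *Igf1*, *Igfals*, *Cux2* and *A1bg*, and highest for *Stat5a* and *Stat5b*. These 5 members are the ones that fell in ABpIF/F vs Ctrl, the group whose clock score malpa387 shares, and the part of sampling time in these values was not tested. The values of malpa387 lay above those of all 3 ABpIF/F mice for all 5. BG3 lay above all ABpIF/+ mice for 6 members and below all of them for 3, and only for *Bcl6* inside their range.

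Other genes of growth hormone and cytokine signalling were taken from a list of 15, all in the table. In ABpIF/+ vs Ctrl 2 were called higher and 2 lower, in ABpIF/F vs Ctrl 1 and 1, and in ABpIF/+ vs ABpIF/F 0 and 1. Among all genes with at least 1 CPM 17.6%, 12.6% and 12.2% were called in these comparisons. The median log2 fold changes of the list were 0.12, 0.23 and -0.13, where genes with at least 1 CPM had 0.02, -0.00077 and 0.04. *Jak2*, the receptor's kinase, was at 18.3 ± 1.90 (SD, n = 6), 20.0 ± 1.77 (SD, n = 6) and 21.9 ± 2.58 CPM (SD, n = 3) in Ctrl, ABpIF/+ and ABpIF/F mice and was called in no comparison. *Stat3*, which answers to interleukin-6 more than to growth hormone, was also called in none, at 114 ± 19.9, 145 ± 57.0 and 154 ± 61.5 CPM.

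*Prlr*, the prolactin receptor gene, related to *Ghr*, fell in both Braf groups. It ran from 355 to 483 CPM in Ctrl and from 120 to 238 CPM in ABpIF/+ mice, and was at 183, 86.4 and 157 CPM in BG183, BG38 and BG90. On the log2 scale it changed by -1.40 (standard error 0.18, edgeR adjusted p = 3.78e-06) in ABpIF/+ and -1.60 (standard error 0.24, edgeR adjusted p = 4.21e-05) in ABpIF/F mice. *Socs3*, a feedback inhibitor of cytokine receptors, rose by 2.31 in ABpIF/+ (standard error 0.49, edgeR adjusted p = 0.00301) from 4.19 ± 1.12 to 20.9 ± 15.2 CPM (SD, n = 6 each), with BG40 at 48.1 CPM. In ABpIF/F mice it was at 6.00, 10.9 and 28.6 CPM (log2 fold change 1.85, edgeR adjusted p = 0.0359).

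With the clock score in the fit 0 genes of this list were called in ABpIF/F vs Ctrl. *Grb10*, an adaptor that binds insulin and IGF1 receptors, rose in both Braf groups, by 1.13 (edgeR adjusted p = 0.0086) and 1.52 (edgeR adjusted p = 0.00485). Its ABpIF/F call was absent without BG3, malpa454, malpa458 or BG38, each of which left 1 called gene in the list. With the strain label in the fit 2 genes of the list were called in ABpIF/+ vs Ctrl and 1 in ABpIF/F vs Ctrl, all lower. The rises of *Socs3* and *Grb10* were thus not called in that fit.

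**Figure D4:**
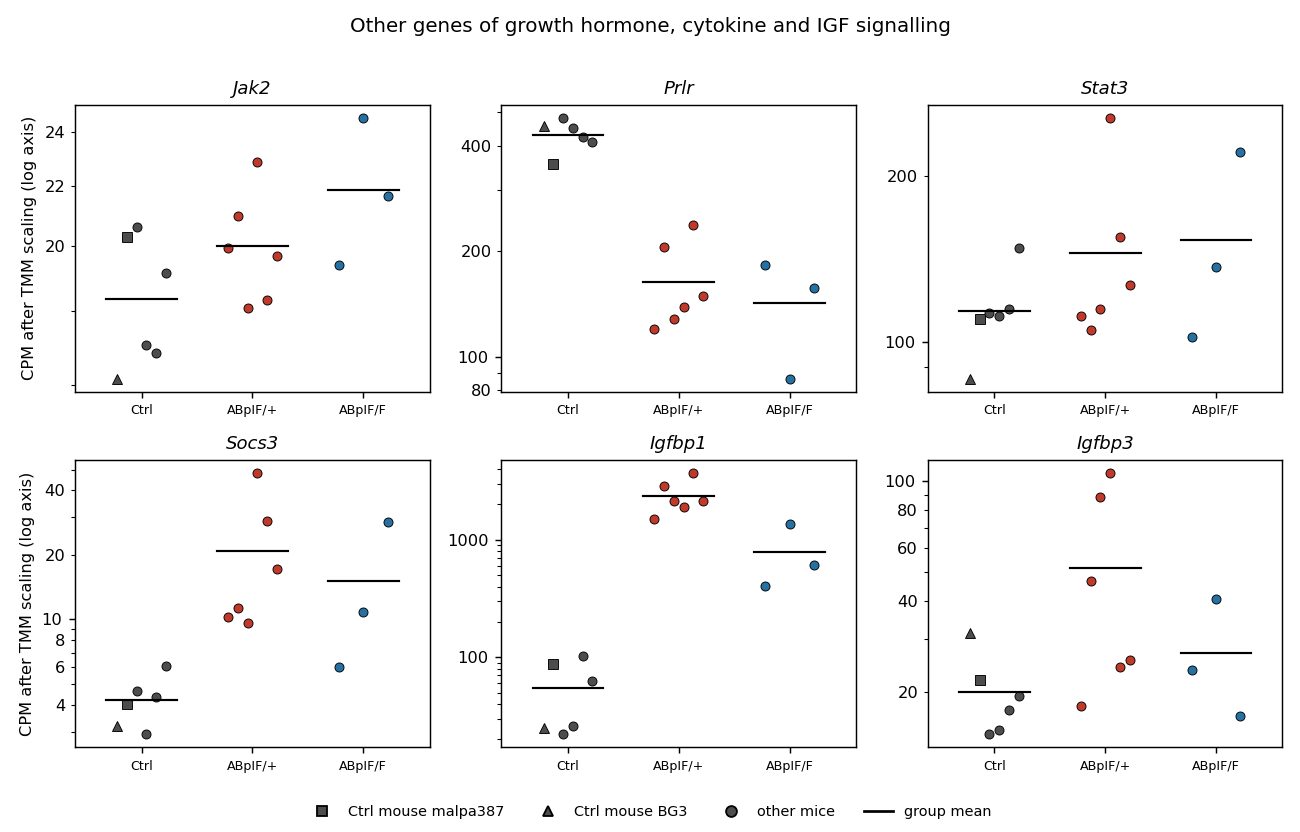
CPM (log axis) of 6 further genes of growth hormone, cytokine and IGF signalling in each mouse of the 3 groups, with lines at the group means, a square for malpa387 and a triangle for BG3. *Prlr* lies lower and *Igfbp1* higher in all 9 Braf mice than in all 6 Ctrl mice, while *Jak2* and *Stat3* overlap between groups.

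The IGF system downstream of the axis was taken as 12 further genes. In ABpIF/+ vs Ctrl 1 was called higher and 1 lower, and in ABpIF/F vs Ctrl 3 higher and 0 lower. In ABpIF/+ vs ABpIF/F 1 was called higher and 2 lower. Among all genes with at least 1 CPM 17.6%, 12.6% and 12.2% were called in these comparisons. The median log2 fold changes of the list were -0.0144, 0.197 and 0.0509. *Stc2*, under 1 CPM in every mouse, was the gene called lower in ABpIF/+ vs Ctrl and 1 of the 2 between the Braf groups. *Igfbp1*, a binding protein that takes up free IGF1 and rises on fasting and low insulin, had the largest log2 fold change of the list in ABpIF/+ vs Ctrl. It ran from 22.1 to 103 CPM in Ctrl and from 1495 to 3691 CPM in ABpIF/+ mice, and was at 404, 1350 and 604 CPM in BG183, BG38 and BG90. It rose by 5.45 (standard error 0.53, edgeR adjusted p = 2.69e-06) and 3.85 (standard error 0.53, edgeR adjusted p = 0.000143) on the log2 scale. *Igfbp3*, which forms the circulating complex with IGF1 and the acid-labile subunit, was not called, at 20.0 ± 6.22 (SD, n = 6), 51.4 ± 37.1 (SD, n = 6) and 27.0 ± 12.3 CPM (SD, n = 3).

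*Igf2*, the fetal growth factor, rose in ABpIF/F vs Ctrl (log2 fold change 4.89, standard error 0.70, edgeR adjusted p = 0.000259), but with a spread from 3.95 to 59.2 CPM over 3 mice. The IGF1 receptor gene *Igf1r* rose in ABpIF/F vs Ctrl from 2.67 ± 0.51 (SD, n = 6) to 7.85 ± 4.77 CPM (SD, n = 3; log2 fold change 1.56, edgeR adjusted p = 0.00144) and was lower in ABpIF/+ than in ABpIF/F mice (-1.66, edgeR adjusted p = 0.000927). *Igfbp4* was higher in ABpIF/+ than in ABpIF/F mice (1.17, edgeR adjusted p = 0.000138). Without BG38 1 gene of the list was called between the Braf groups, and with the clock score in the fit 1 there and 0 in ABpIF/F vs Ctrl. With the strain label in the fit 0 genes of the list were called higher and 1 lower in ABpIF/F vs Ctrl. The rises of *Igfbp1*, *Igf2* and *Igf1r* in ABpIF/F mice were thus not called in that fit. Of 5 lipid genes known to rise when the liver loses growth hormone signalling, 0 rose and 1 fell in each comparison with Ctrl. In ABpIF/+ vs Ctrl this was *Mogat1*, near the floor at means of 0.350 CPM in Ctrl and 0.0239 CPM in ABpIF/+ mice. *Pparg*, a regulator of fat storage, fell in ABpIF/F vs Ctrl from 9.81 ± 2.40 (SD, n = 6) to 3.76 ± 1.40 CPM (SD, n = 3; log2 fold change -1.37, edgeR adjusted p = 0.000704). With the strain label or with the clock score in the fit 0 genes of the list were called in ABpIF/F vs Ctrl.

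Sex-biased genes are the best known output of the axis in mouse liver, and all mice here were female. Of 20 female-biased genes 1 rose and 7 fell in ABpIF/+ vs Ctrl, and 1 rose and 10 fell in ABpIF/F vs Ctrl, with median log2 fold changes of -0.99 and -1.41. Among all genes with at least 1 CPM 17.6% and 12.6% were called in these comparisons. The falls included the steroid and drug hydroxylase gene *Cyp3a41a*, at 132 ± 64.0 CPM in Ctrl, 2.59 ± 1.28 in ABpIF/+ and 0.238 ± 0.25 CPM in ABpIF/F mice, the sulfotransferase gene *Sult2a1*, at 87.8 ± 55.0, 3.67 ± 1.30 and 0.781 ± 0.26 CPM, and *Cyp2c69*, at 1348 ± 363, 177 ± 65.6 and 39.0 ± 22.9 CPM (SD, n = 6, 6 and 3). Members of the Cyp3a and Cyp2c families are similar in sequence, which makes the value of a single gene uncertain. Between the Braf groups 6 were higher and 1 lower in ABpIF/+ mice (median 1.34).

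*Cyp3a16*, a further hydroxylase gene, was at 136 ± 88.9 CPM (SD, n = 6) in Ctrl, 48.0 ± 13.9 (SD, n = 6) in ABpIF/+ and 2.98 ± 2.38 CPM (SD, n = 3) in ABpIF/F mice, and it was higher in ABpIF/+ than in ABpIF/F mice by 4.00 on the log2 scale (standard error 0.84, edgeR adjusted p = 0.00489). *Cyp3a16* and the sulfotransferase gene *Sult3a1* were called higher in ABpIF/+ than in ABpIF/F mice and lower in ABpIF/F than in Ctrl mice. In ABpIF/F vs Ctrl 7 female-biased genes were called without BG38, 5 with the strain label and 3 with the clock score in the fit, all lower. Between the Braf groups 3 were called without BG38, 4 without BG90 and 0 with the clock score.

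Of 20 male-biased genes, 3 rose and 9 fell in ABpIF/+ vs Ctrl (median log2 fold change -1.72), 3 rose and 6 fell in ABpIF/F vs Ctrl (median -1.90), and 0 were higher and 5 lower in ABpIF/+ than in ABpIF/F mice (median -0.998). Of these 20 genes 15 had at least 1 CPM. Among all genes at that level 17.6%, 12.6% and 12.2% were called. The genes that rose were *Serpina1e* (2.90 on the log2 scale), *Cyp2d9* (1.65) and *Gstp1* (1.15) in ABpIF/+ vs Ctrl. In ABpIF/F vs Ctrl they were *Cspg5* (2.96, under 1 CPM in every mouse), *Mup20* (2.04) and *Cyp2d9* (1.38). *Slco1a1*, an organic anion transporter gene, was at 130 ± 69.8 (SD, n = 6), 3.67 ± 0.71 (SD, n = 6) and 9.54 ± 6.70 CPM (SD, n = 3) in Ctrl, ABpIF/+ and ABpIF/F mice. The oxysterol hydroxylase gene *Cyp7b1* fell from 32.4 ± 12.2 to 4.85 ± 1.32 CPM (SD, n = 6 each) in ABpIF/+ and to 5.82 ± 0.46 CPM (SD, n = 3) in ABpIF/F mice. The major urinary protein gene *Mup3*, whose near-identical neighbors share its reads, was at 2550 ± 824, 8.25 ± 8.73 and 538 ± 474 CPM, and it fell in ABpIF/+ vs Ctrl (log2 fold change -8.26, edgeR adjusted p = 1.16e-05).

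In ABpIF/F vs Ctrl 5 male-biased genes were called without malpa458, without BG38 or without BG90, 4 with the strain label and 3 with the clock score. All of these were lower, except for 1 called higher without BG38 and 1 without BG90. Between the Braf groups 3 were called without BG183 and 2 with the clock score. Female-biased and male-biased genes were written down with earlier results of these mice known, so their counts are a description.

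**Figure D5:**
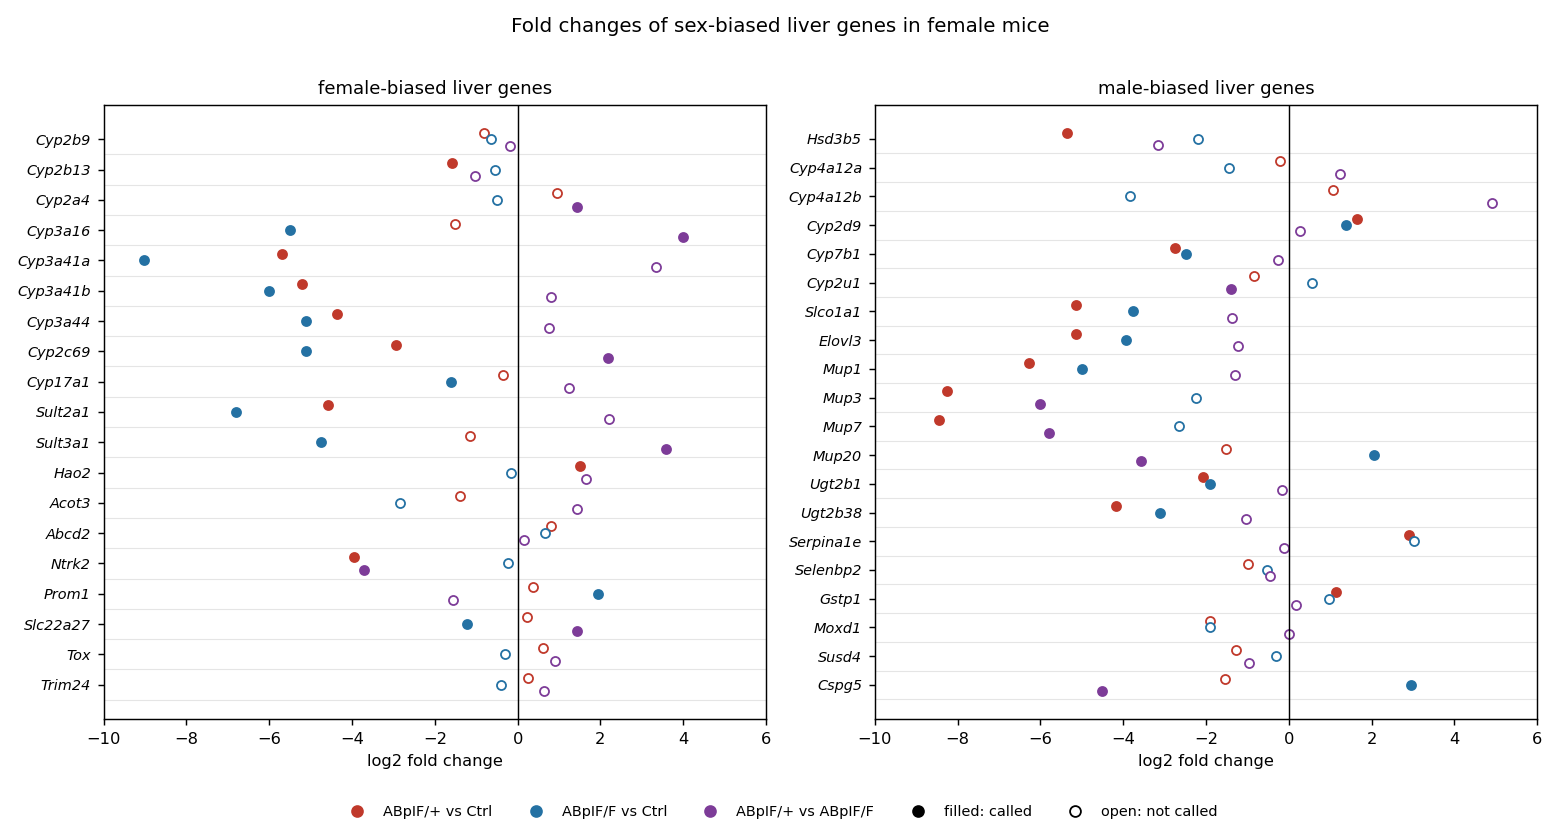
Log2 fold change of female-biased and male-biased liver genes in the 3 comparisons, filled where called. Against Ctrl most called genes of both lists lie left of 0, and between the Braf groups the called female-biased genes lie mostly right of 0 and the called male-biased genes left of 0 (5 of 5).

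Inflammation was read from 11 acute phase and cytokine genes. In ABpIF/+ and in ABpIF/F vs Ctrl 2 rose and 0 fell, where 17.6% and 12.6% of genes with at least 1 CPM were called. They were *Lcn2*, an iron-trapping protein gene (8.09 ± 1.74, 415 ± 337 and 608 ± 434 CPM), and *Hp*, the haptoglobin gene (1405 ± 228, 5930 ± 2127 and 5594 ± 3249 CPM, SD, n = 6, 6 and 3). *Crp* lay lower in all ABpIF/+ than in all Ctrl mice, under the fold limit (-0.63 on the log2 scale, edgeR adjusted p = 0.00162). The median log2 fold changes of the list against Ctrl were 0.01 and 1.95. With the strain label in the fit 0 were called in either. Between the Braf groups edgeR called 0 of them, with 2 at an unadjusted p under 0.05, and DESeq2 also called 0. Of 14 core clock genes 3 rose in ABpIF/+ vs Ctrl, *Per1*, *Cry1* and *Cry2*, and 3 fell in ABpIF/F vs Ctrl, *Ciart*, *Tef* and *Nr1d2*. In ABpIF/+ vs ABpIF/F 4 were called higher, *Ciart* (5.13 on the log2 scale), *Per1* (2.83), *Tef* (2.44) and *Cry2* (1.48), and *Npas2* lower (-5.56), with a median of 1.36 over the list. *Ciart* was at 15.5 ± 7.97, 24.3 ± 6.82 and 0.701 ± 0.46 CPM, with 0.335 CPM in the lowest Ctrl mouse. These counts moved with single mice, to 1 without malpa459 or BG55 in ABpIF/+ vs Ctrl, and to 8 without malpa387, 1 without BG38 and 0 without BG90 in ABpIF/F vs Ctrl. Between the Braf groups 8 were called without malpa387, 3 without BG38 and 0 with the clock score, itself made of such genes, in the fit.

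The genes whose log2 CPM followed each member most closely over the 15 mice were listed by Pearson's r, with no test, since group differences and shared libraries raise every such value. *Prlr* was among the 3 closest to *Ghr* (r = 0.983), after the dehydrogenase subunit gene *Dld* (0.985). *Igfals* was closest to *Mup9* (0.992), *Nudt7* (0.990) and *Mup11* (0.990). *Lonrf1* followed *Cux2* at 0.974. *A1bg* was closest to *Nt5e* (0.979) and to the bile acid enzyme gene *Cyp27a1* (0.977). *Socs2* and *Cish* were each other's closest gene (0.927), and no other member had a member among its 3 closest.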

How the data were processed

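RNA was isolated with Trizol from liver tissue of 15 female mice, and stranded mRNA libraries were sequenced in pairs. The authors aligned the reads to mm10 with HISAT2 (version 2.21 per the labels) and deposited raw counts per gene from featureCounts 2.0.8. The annotation and strand setting are not given in the sources used here. Of the 23 samples listed, 8 mice were named by 2 samples and counted once. The authors' columns of fold changes and p-values, and 5 count columns headed by bare numbers, were not used.

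Counts of 27179 genes were fitted over all 15 mice, with no covariate, by edgeR 4.0.16 (R 4.3.3) with TMM scaling and the robust quasi-likelihood test. P-values were adjusted by Benjamini-Hochberg over all genes. Calls required an adjusted p below 0.01 together with an absolute log2 fold change of 1 or more. CPM values were computed after TMM scaling, and per kilobase values used the union of exons. The fit was tested on simulated counts. Totals of 24742910 to 32262649 counts per mouse set the precision. The p-values measure the spread between mice.

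Alternatives were DESeq2 1.42.0, other size factors, library totals, filters, thresholds, the strain label, the clock score and each mouse left out. Named genes were all 10 members, up to 6 called genes per list and comparison with the largest change and at least 1 CPM in a group mean, 6 pathway genes whatever their values, and the 3 genes most alike to each member. Some genes that this rule names are not reported here. Members and lists were chosen with earlier results of these data known. Figures were drawn with matplotlib 3.10.9 in Python 3.11.15.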

Additional observations from a re-analysis of the deposited data

Results flagged for a closer look

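*Igfals* in the Ctrl mouse malpa387 was at 97.8 CPM, farther below the other 5 Ctrl mice than the limit of Dixon's test for 6 samples allows. The members were tested in both groups of 6 mice, 20 tests in all, of which 1 was past the limit, and chance alone gives about 1 in 20. The clock score of this mouse, 0.75, lay with those of the ABpIF/F mice, and its part in the *Igfals* value was not tested.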

How the results depend on the processing

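Of 810 refits of member fold changes (30 results under 27 alternatives), 748 kept direction and call, 28 gained a call, 25 lost it and 9 changed sign, and the cause was not tested. Called members numbered 2 in ABpIF/+ vs Ctrl and 2 in ABpIF/F vs Ctrl at a log2 fold limit of 2, 3 and 3 with the strain label in the fit, and 2 in ABpIF/F vs Ctrl with the clock score. Leaving out each mouse gave 4 to 7, 5 to 5 and 2 to 3 called members in the 3 comparisons. Uncalled values changed sign for *Stat5b* in ABpIF/F vs Ctrl (0.22 with the strain label, -0.0823 to 0.115 over mice left out, above 0 without malpa387, malpa454 or BG38), for *Socs2* there without BG183 (-0.0675 to 0.571 over mice left out), for *Bcl6* there (0.30 with the strain label, 0.0122 with the clock score), and with the clock score for *Ghr* (-0.0154) and *Igf1* (-0.0967) in ABpIF/+ vs ABpIF/F. Calls over all genes, 2729, 1883 and 1969 in the 3 comparisons, became 5003, 2974 and 2976 with no fold limit and 1095, 856 and 855 at the higher one. The strain label gave 1357 and 1148 against Ctrl, the clock score 484 and 204 for the comparisons with ABpIF/F, and leaving out BG38 1212 and 1155. Scaling by library totals moved the median of genes with at least 1 CPM by -0.16 and -0.15 in the comparisons of ABpIF/+ mice. The strain label separates BG3 from the other 5 Ctrl mice, so that fit rests on 1 mouse, and 3 ABpIF/F mice limit the precision there. The clock score separates malpa387 from the other 5 Ctrl mice, so the fit with it leans on that mouse. The other deposited count table was compared in place of a refit, and its 10 matched columns held 0 differing values. No paired analysis was possible because the count columns carry mouse names and no replicate numbers shared between groups.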
